A study of Mus musculus with 1920 samples.

Results

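The genes described here are 10 members of the Notch pathway and of the switch to secretory fate: the receptors Notch1 and Notch2, the ligands Dll1, Dll4 and Jag1, the receptor-modifying glycosyltransferase Mfng, the Notch target Hes1, and the secretory transcription factors Atoh1, Gfi1 and Spdef. They were chosen by name, and all 10 were found among the 55471 gene identifiers of the count table. They were followed in the 1836 sorted cells that had at least 1000 detected genes, after 84 cells below that number were left out. The cells were Lgr5 high intestinal stem cells (ISCs) of the small intestine from 3 young and 4 aged mice, with their ages given only as young or old. All 7 mice carried the B6.129P2-Lgr5tm1(cre/ERT2)Cle/J allele, a knock-in that places EGFP and CreERT2 at the Lgr5 locus, so the controls carried it too and the sort could read GFP as a report of Lgr5. Live crypt cells with high GFP were sorted singly and sequenced by Smart-seq2, a full-length method without molecular identifiers, so that reads are not independent molecules and intervals from reads cover counting error only. The kept cells numbered 160, 370 and 376 in young mice 1 to 3 and 189, 186, 189 and 366 in aged mice 1 to 4.

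In the crypt, Notch signaling passes between neighboring cells. A ligand of the Delta or Jagged family on a cell activates a Notch receptor on its neighbor, the receptor is cleaved, and its intracellular part joins the DNA-binding protein RBPJ to turn on targets such as Hes1. Hes1 represses Atoh1, the factor that commits crypt cells to the secretory lineages, and cells that escape this repression express Atoh1 and Delta ligands and become Paneth, goblet or enteroendocrine cells, whereas cells with active Notch stay stem cells or become enterocytes.

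The stem cell checks of the sort were high. Lgr5 had a read in 96.9% and Olfm4, a crypt base stem cell gene and Notch target, in 99.9% of kept cells. Markers of other cells were read too. The Paneth marker Lyz1 had a read in 87.0% of kept cells, at 1310 to 6254 CPM by mouse, and the goblet marker Muc2 in 34.0%. Chga (enteroendocrine) was read in 6.05% and Dclk1 (tuft) in 3.49%. Presence of a read alone therefore does not name the type of a cell. Kept cells had a median of 305492 reads, and the summed reads per mouse lay between 49447464 and 134408884. Each cell was assigned to the marker list with the highest mean log2(CPM + 1), where CPM is counts per 1000000 reads of the cell, among lists for ISCs, Paneth, goblet, enterocyte, enteroendocrine, tuft, immune and stromal cells, none of which holds any of the 10 genes. The ISC list led in 1604 cells, the Paneth list in 118, the enterocyte list in 87, the goblet list in 17, the tuft list in 6, the stromal list in 3 and the enteroendocrine list in 1. The Paneth-led, enterocyte-led and goblet-led cells still held reads of Lgr5 in 93.2%, 81.6% and 82.4% of cells, so these are names of a leading list and not of purified types. The share of ISC-led cells was 88.8%, 94.1% and 94.4% in the young mice and 91.5%, 79.0%, 82.5% and 77.3% in the aged mice.

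The receptors and Hes1 were the most widely detected of the 10 genes. Notch1, the main receptor of crypt stem cells together with Notch2, is on the minus strand of chromosome 2 (GRCm38, chr2:26457903-26516663) and had 161923 reads in kept cells. Its summed level was 246, 245 and 273 CPM in young mice 1 to 3 and 234, 197, 208 and 309 CPM in aged mice 1 to 4, with the aged mice on both sides of the young. Notch2, on the plus strand of chromosome 3 (chr3:98013527-98150361), had levels of 59.7, 97.0 and 132 CPM in the young and 109, 82.0, 80.2 and 101 CPM in the aged mice, and here the young mice lay at both ends of the range. When every cell was thinned to 100000 reads, to make shares comparable across depths, Notch1 had a read in 95.9% and Notch2 in 90.5% of the 1732 cells deep enough. Before thinning the shares were 96.4% for Notch1, 92.9% for Notch2 and 93.0% for Hes1. Both share some exonic bases with other annotated genes (Notch1 1068 with 0610009E02Rik on the opposite strand, Notch2 541 with Gm42820 on its own strand), which had 3602 and 641 reads in all cells.

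The ligands were sparser, and each differed in how it was spread over cells. Dll1, a Delta ligand of secretory precursors (chr17:15367354-15376872, minus strand), was read in 44.3% of thinned cells, and its level was 17.3, 19.7 and 17.9 CPM in the young and 17.6, 20.4, 18.1 and 29.9 CPM in the aged mice. Aged mouse 4 stood above the others. Dll4, the second Delta ligand of the crypt (chr2:119325784-119335962, plus strand), was read in 18.9% of thinned cells, with 6.71, 7.31 and 5.47 CPM in the young and 13.3, 7.68, 4.53 and 14.1 CPM in the aged mice. Aged mice 1 and 4 were highest and aged mouse 3 was lowest. Jag1, a Jagged ligand (chr2:137081456-137116644, minus strand), was read in 33.8% of thinned cells at 12.1, 8.03 and 7.16 CPM in the young and 11.8, 10.9, 13.9 and 10.0 CPM in the aged mice, with young mouse 1 inside the aged range. Mfng, a Fringe enzyme that adds sugars to Notch and so changes which ligands it answers (chr15:78755882-78773475, minus strand), was read in 4.10% of thinned cells. It had 2, 103 and 118 reads in young mice 1 to 3 and 157, 34, 88 and 361 reads in aged mice 1 to 4.

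Hes1, the repressor that transmits the Notch signal (chr16:30064384-30067796, plus strand), was read in 87.6% of thinned cells. Its level was 122, 70.2 and 84.9 CPM in the young and 51.4, 76.7, 115 and 34.5 CPM in the aged mice, a wide range in both groups with aged mouse 4 lowest.

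The 3 secretory factors were read in a minority of cells. Atoh1, the basic helix-loop-helix factor of the secretory lineages, is a gene of 1 exon (chr6:64729125-64731245, plus strand) and was read in 269 of 1836 kept cells (14.7%). Its summed level was 13.0, 4.99 and 8.63 CPM in the young and 10.3, 15.6, 26.3 and 28.6 CPM in the aged mice. Aged mice 2 to 4 were above every young mouse, while aged mouse 1 lay inside the young range. Spdef, an ETS factor of goblet and Paneth cell maturation (chr17:27714352-27728955, minus strand), was read in 190 kept cells (10.3%), with 3.03, 3.50 and 3.17 CPM in the young and 2.61, 6.60, 6.87 and 9.42 CPM in the aged mice, and again aged mouse 1 lay apart from the other aged mice, below the young. Gfi1, a zinc finger repressor that acts downstream of Atoh1 (chr5:107716657-107726036, minus strand), was read in 37 kept cells (2.02%) and had 158 reads in all.

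**Figure D1:**
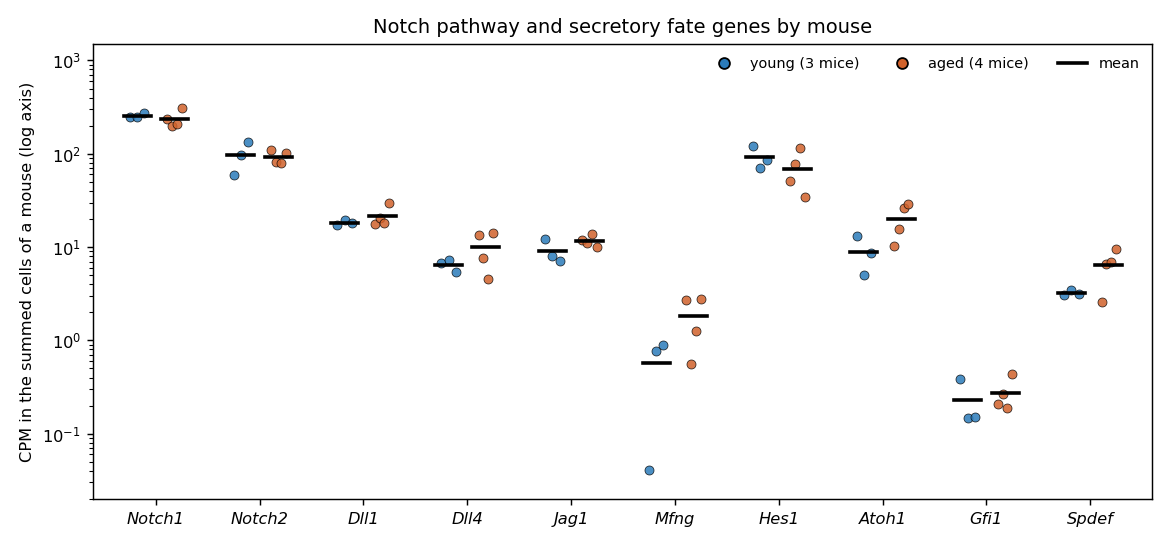
Level of each gene in the summed kept cells of a mouse, in CPM on a log axis, with 1 point per mouse for 3 young and 4 aged mice and a bar at the mean of each age. For every gene the points of the ages overlap, and the 3 highest Atoh1 points are aged mice, at 15.6, 26.3 and 28.6 CPM.

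Read abundance of these rare genes rested on few cells. The 5% of cells (92 cells) with the highest CPM held 82.9% of the summed per-cell CPM of Atoh1 and 86.5% of that of Spdef, against 60.7% for Dll4, 46.5% for Jag1, 41.5% for Dll1, 25.4% for Hes1, 18.4% for Notch2 and 14.4% for Notch1. Among cells with a read the median was 31.5 CPM for Atoh1 and the 90th percentile 247 CPM, whereas Hes1 had a median of 48.6 and a 90th percentile of 141 CPM. For Atoh1 41.3% of the cells with a read had at most 5 reads.

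Because a longer transcript yields more reads in a full-length method, levels of different genes were compared only in CPM per kilobase of merged exons. The order of the mean over 7 mice was Hes1 at 38.9 ± 15.5 (SD, n = 7), Notch1 at 17.2 ± 2.67, Notch2 at 8.75 ± 2.15, Atoh1 at 7.23 ± 4.21, Dll1 at 4.77 ± 1.05, Dll4 at 2.19 ± 0.975, Spdef at 2.18 ± 1.13, Jag1 at 1.81 ± 0.405, Mfng at 0.452 ± 0.371 and Gfi1 at 0.0799 ± 0.0364 CPM per kilobase. Of the 9 neighboring pairs in this order 3 differed by an exact two-sided sign-flip permutation test over the mice (adjusted p = 0.0469 for each, the smallest adjusted value obtained): Notch1 exceeded Notch2, Dll1 exceeded Dll4 and Jag1 exceeded Mfng, each in 7 of 7 mice. Hes1 was above Notch1 in 6 of 7 mice (exact permutation p = 0.0312, adjusted p = 0.0703). The other 5 pairs, among them Notch2 with Atoh1 and the run of Dll4, Spdef and Jag1, did not differ beyond their spread over mice.

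The secretory factors and Dll4 were found together in the same cells. Within each mouse, Pearson's r of log2(CPM + 1) across cells was computed for all 45 pairs of the 10 genes and is given as a description, since cells share libraries and depth. Atoh1 and Spdef had the highest median r of the 7 mice, 0.68 (range 0.62 to 0.78). Dll4 with Atoh1 had 0.42 (0.25 to 0.53), Gfi1 with Spdef 0.41 (0.21 to 0.53), Atoh1 with Gfi1 0.34 (0.30 to 0.47) and Dll1 with Atoh1 0.28 (0.13 to 0.34). The receptors formed a pair of their own, with a median r of 0.32 (0.24 to 0.65) between Notch1 and Notch2. The CPM of the receptors and Hes1 was lower where the secretory factors were high: r was -0.20 for Notch2 with Atoh1, -0.17 for Notch1 with Atoh1 and -0.12 for Hes1 with Atoh1, and negative in 7 of 7 mice for each of these 3 pairs. CPM is a share of a cell's reads. The 20 highest genes took 54.4% to 74.9% of reads in Paneth-led but 23.4% to 32.4% in ISC-led cells. The part of this in the negative r was not tested. In ISC-led cells alone, Atoh1 with Spdef kept a median r of 0.60 and Dll4 with Atoh1 0.44, whereas the negative values were smaller. Notch2 with Atoh1 had -0.10 (-0.16 to -0.02), Notch1 with Atoh1 -0.04 (-0.14 to 0.01) and Hes1 with Atoh1 -0.0036 (-0.21 to 0.10), and the last 2 ranges included both signs. Jag1 had an r between -0.06 and 0.09 with every other member.

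**Figure D2:**
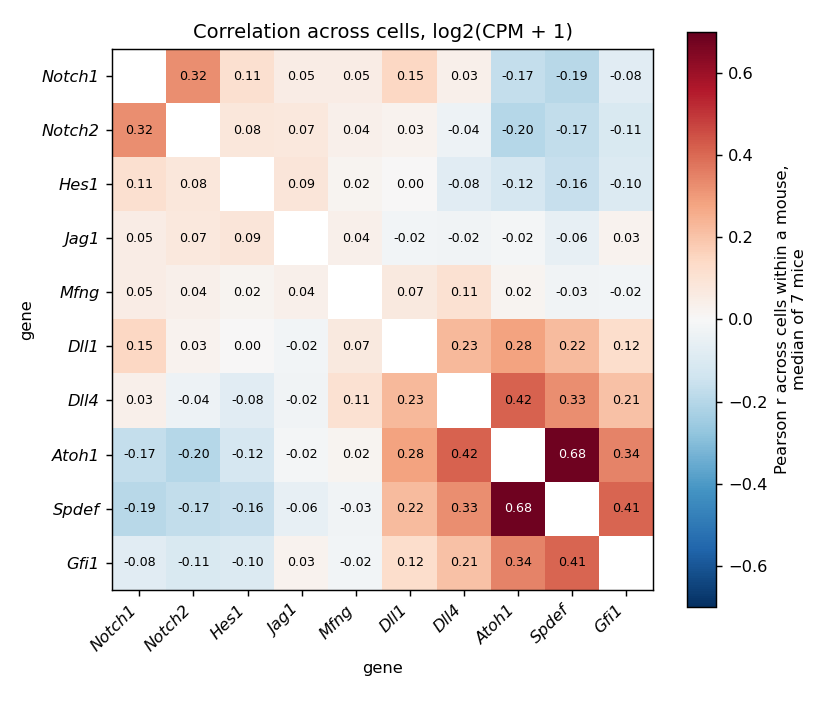
Median over 7 mice of Pearson's r across the kept cells of a mouse on log2(CPM + 1), for each pair of genes, in red for positive and blue for negative values. Atoh1, Spdef, Gfi1 and Dll4 form a block of positive values, up to 0.68 for Atoh1 with Spdef, and the 2 receptors pair with each other at 0.32.

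Presence of a read gave the same picture. Of the 221 thinned cells with an Atoh1 read, 52.5% also had a Spdef read, against 2.12% of the 1511 cells without. Dll4 was read in 56.6% of Atoh1-positive and 13.4% of other cells, Dll1 in 69.2% and 40.7%, and Gfi1 in 8.60% and 0.199%. Spdef, Dll4 and Dll1 were more often read in the Atoh1-positive cells of 7 of 7 mice, and Gfi1 in 6 of 7. Hes1 was read in 79.2% of Atoh1-positive and 88.8% of other cells, and was less often read in the Atoh1-positive cells of every mouse. Jag1 stood at 33.5% and 33.9%. Atoh1-positive cells still had reads of Lgr5 in 95.9% of cells. Among the 111 Atoh1-positive cells led by the ISC list, Dll4 was read in 60.4% and Dll1 in 75.7%, compared with 12.6% and 39.9% of the 1430 other ISC-led cells, and both were higher in 7 of 7 mice. The split of Hes1 was less regular there. It was read in 82.0% of Atoh1-positive and 90.2% of other ISC-led cells, but more often in the Atoh1-positive cells of 3 of 7 mice.

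Likeness to all other genes was ranked by the median over 7 mice of the same within-mouse r, among genes with a read in at least 5% of kept cells. For Atoh1 the 10 most alike were Spdef (0.68), Tff3 (0.68), Sytl2 (0.67), Ccl9 (0.65), Hpd (0.64), Muc2 (0.63), Ern2 (0.63), Cbfa2t3 (0.59), Galnt5 (0.59) and Guca2a (0.58), of which Muc2 is the main secreted mucin and Tff3 a trefoil peptide of goblet cells. For Spdef they were Sytl2 (0.75), Hpd (0.72) and Atoh1, and for Gfi1 Spdef, Hpd (0.37) and Cbfa2t3 (0.36). Dll4 was most like Gm14207 (0.46), Atoh1 and Hepacam2 (0.41). Gm14207 lies on the opposite strand and shares 214 exonic bases with Dll4, and as the strand setting of the counting is not given in the sources used here, their reads cannot be told apart. Dll1 was most like Ndrg1 (0.30), Atoh1 and Tff3 (0.28).

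The most alike genes of the receptors were of another kind. Notch1 was most like Fam234b (0.52), Igfbp4 (0.49, an ISC marker) and Hmbox1 (0.44), and Notch2 most like Kcnq1 (0.54), Fam234b (0.51) and Muc4 (0.51). Hes1 reached at most 0.28, with Rpl37, followed by Gpx1 (0.27), Rpl19 (0.27), Mettl23 (0.26), Atp5j (0.26), Gm15920 (0.26), Ifitm2 (0.25), Tmsb4x (0.25), Hspe1 (0.25) and Cdc42ep1 (0.25). Jag1 reached 0.20 with Uqcr10, 0.19 with Lgals2 and 0.19 with Mgst3, and Mfng 0.22 with Adgrf5, 0.17 with Fxyd5 and 0.16 with Tpst1.

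Promoter sequences are shown for Atoh1 and for Spdef, Dll4 and Dll1, the members read more often in the Atoh1-positive cells of 7 of 7 mice. Gfi1, more often read there in 6 of 7 mice, is not printed. Each sequence is the 250 bases before the RefSeq start site on GRCm38.p6, read 5′ to 3′ on the strand of the gene. They are shown since Atoh1 binds E-boxes and Notch acts through RBPJ. Capitals mark the E-box CANNTG, whose reverse complement has the same form, and the RBPJ core TGGGAA on either strand. The windows are chr6:64728875-64729124 (plus) for Atoh1, chr17:27728952-27729201 (minus) for Spdef, chr2:119325534-119325783 (plus) for Dll4 and chr17:15376933-15377182 (minus) for Dll1, the more distal of its start sites.
Atoh1: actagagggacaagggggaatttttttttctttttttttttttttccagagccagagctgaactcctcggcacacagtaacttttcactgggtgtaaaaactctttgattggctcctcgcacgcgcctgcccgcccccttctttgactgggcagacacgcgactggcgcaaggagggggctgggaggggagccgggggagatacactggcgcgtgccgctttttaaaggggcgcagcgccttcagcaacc
Spdef: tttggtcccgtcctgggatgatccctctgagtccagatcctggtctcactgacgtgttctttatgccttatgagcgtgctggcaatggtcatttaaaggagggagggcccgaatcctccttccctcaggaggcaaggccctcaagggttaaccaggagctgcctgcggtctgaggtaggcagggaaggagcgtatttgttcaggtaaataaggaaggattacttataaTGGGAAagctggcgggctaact
Dll4: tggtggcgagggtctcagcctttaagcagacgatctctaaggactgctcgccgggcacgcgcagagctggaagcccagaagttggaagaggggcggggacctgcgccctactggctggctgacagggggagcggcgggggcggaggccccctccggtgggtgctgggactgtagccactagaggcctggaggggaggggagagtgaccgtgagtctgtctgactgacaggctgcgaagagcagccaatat
Dll1: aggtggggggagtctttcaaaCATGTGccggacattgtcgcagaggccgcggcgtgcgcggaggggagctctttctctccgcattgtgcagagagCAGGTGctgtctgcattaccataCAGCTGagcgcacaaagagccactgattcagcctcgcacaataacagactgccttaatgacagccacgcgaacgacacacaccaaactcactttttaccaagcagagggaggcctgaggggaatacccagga

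RefSeq promoters were matched for 8 of the 10 genes, with 10 entries in all. The Dll1 window held 3 E-boxes and the other Dll1 start site 1, Jag1 held 1, each of the Gfi1 entries 1, and the windows of Atoh1, Spdef, Dll4, Notch1 and Notch2 none. Among all 32851 promoters of the same length, 66.2% held an E-box and 21.6% a TGGGAA core, which among the members occurred only in the Spdef window. A match describes letters in the window and not a bound site. Hes1 and Mfng were not matched.

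Cells led by another list differed from ISC-led cells of the same mice in these genes. The cells were assigned on their own counts, so genes that follow a marker list differ between the classes by construction. In Paneth-led cells of 7 mice, Spdef, Atoh1 and Dll4 rose and Notch2 and Notch1 fell. These are 3 of 9 genes tested against a background of 7.64% of 16639 genes called higher, and 2 of 9 against 7.62% called lower (edgeR quasi-likelihood test with the mouse as a block, Benjamini-Hochberg adjusted p under 0.05), and Gfi1 was left out by the low-count filter.

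Atoh1 was at 6.94, 3.76 and 7.69 CPM in ISC-led cells of the young and at 9.57, 10.0, 21.7 and 22.4 CPM in those of the aged mice, and at 25.0, 40.5 and 14.8 CPM in Paneth-led cells of the young and 31.9, 58.6, 36.9 and 79.2 CPM in those of the aged mice. It was higher in the Paneth-led cells of 7 of 7 mice, by 3.07 ± 0.29 (SE) on the log2 scale (edgeR adjusted p = 1.18e-06). Spdef was at 0.834 to 7.50 CPM in ISC-led and at 14.4 to 29.0 CPM in Paneth-led cells, so the classes did not overlap, and it was higher by 3.96 ± 0.36 (edgeR adjusted p = 1.03e-06). Dll4 was higher by 1.72 ± 0.29 (edgeR adjusted p = 0.000739). In thinned cells the mean share with a read over mice was 79.0% ± 10.5 (SD, n = 7) for Atoh1 in Paneth-led and 7.53% ± 3.83 in ISC-led cells, 68.7% ± 6.38 and 3.88% ± 2.13 for Spdef, and 46.5% ± 16.2 and 15.7% ± 4.11 for Dll4.

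In Paneth-led cells Notch2 fell by 1.00 ± 0.17 (SE) on the log2 scale (edgeR adjusted p = 0.000966) and Notch1 fell by 0.58 ± 0.18 (edgeR adjusted p = 0.0376). The call for Notch1 was lost without aged mouse 1, 2 or 4 or young mouse 3, where the log2 values lay between -0.54 and -0.48 and the edgeR adjusted p between 0.0878 and 0.114, and with DESeq2 size factors (-0.50, edgeR adjusted p = 0.0803). Dll1 (0.29), Hes1 (-0.32), Jag1 (-0.47) and Mfng (-1.05) did not pass the test. Scaling matters in this comparison: the 20 highest genes took 54.4% to 74.9% of reads in Paneth-led but 23.4% to 32.4% in ISC-led cells, and the median of all genes was -0.13 with TMM scaling and -1.32 with library totals. With library totals Atoh1 (1.87) and Spdef (2.77) were still called higher, Dll4 (0.53) was not, and Dll1 turned to -0.89 and was called lower, where 2.41% of all genes were called higher and 70.7% lower, so the direction of Dll1 in particular depends on the scaling. The shares of thinned cells with a Dll1 read were 57.6% ± 13.0 in Paneth-led and 42.8% ± 4.79 in ISC-led cells (SD, n = 7).

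In enterocyte-led cells the receptors and Hes1 fell. This fit holds 6 mice, since young mouse 2 had fewer than 5 such cells, and 8 of the 10 genes were tested. On the log2 scale Notch2 fell by 1.16 ± 0.27 (SE, edgeR adjusted p = 0.00889), Notch1 fell by 1.10 ± 0.23 (edgeR adjusted p = 0.00417) and Hes1 fell by 0.93 ± 0.26 (edgeR adjusted p = 0.0221), that is 3 of 8 against a background of 10.3% of 16588 genes called lower, and 0 of 8 were called higher against 10.1%. The call for Hes1 was lost without aged mouse 2, aged mouse 3 or young mouse 1, with log2 values between -0.90 and -0.84 and edgeR adjusted p between 0.0586 and 0.0812. Atoh1 (-1.28 ± 0.81), Spdef (-0.89 ± 0.86), Dll1 (-0.45 ± 0.29), Dll4 (-0.37 ± 0.48) and Jag1 (-0.04 ± 0.36) did not pass the test in enterocyte-led cells. Their mean shares of thinned cells with a read were not lower there (SD, n = 4 in enterocyte-led, n = 7 in ISC-led cells). In that order they were 61.7% ± 3.29 and 42.8% ± 4.79 for Dll1 and 22.0% ± 7.76 and 15.7% ± 4.11 for Dll4. For Jag1 they were 36.6% ± 7.23 and 35.0% ± 7.79, and for Spdef 14.3% ± 11.8 and 3.88% ± 2.13. Atoh1 had 19.4% ± 29.1 (0% to 61.5% by mouse) and 7.53% ± 3.83.

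**Figure D3:**
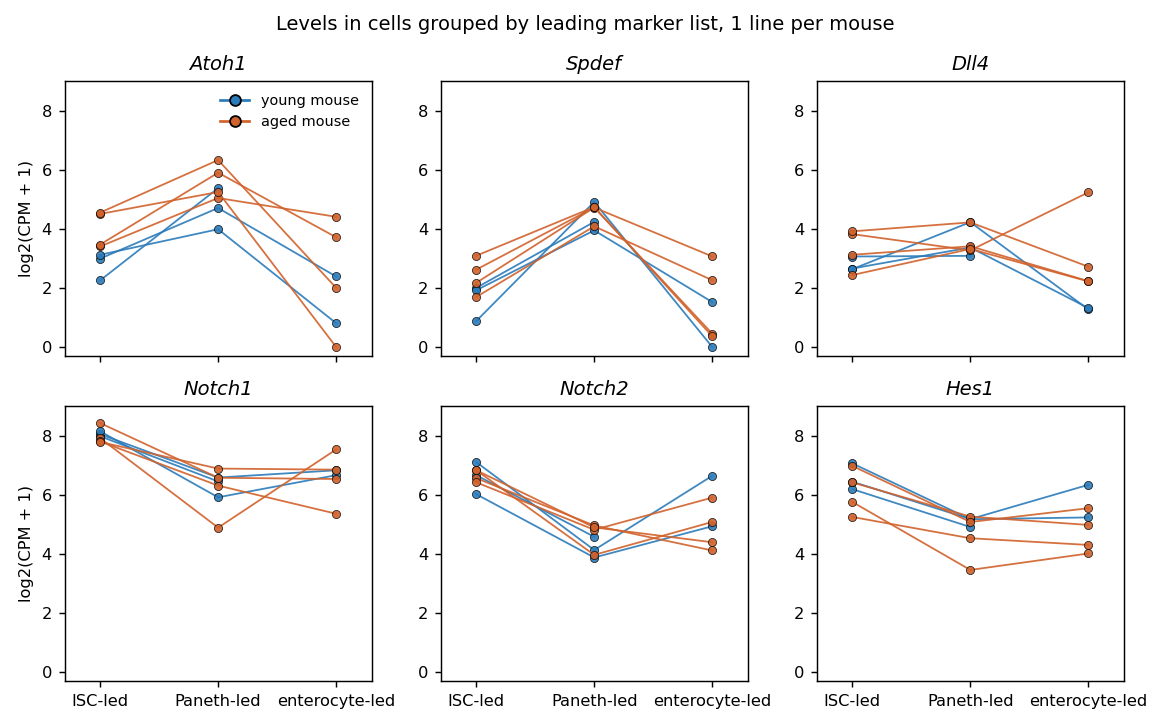
Level of 6 genes as log2(CPM + 1) in the ISC-led, Paneth-led and enterocyte-led cells of a mouse, with 1 line per mouse, young in blue and aged in orange. Each mouse with at least 5 cells of a class is shown, and Atoh1 and Spdef rise from ISC-led to Paneth-led cells in all 7 mice while Notch1, Notch2 and Hes1 CPM is lower there, before the TMM scaling of the test.

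The 17 goblet-led cells were too few for a test and are described pooled. They came from 6 mice, with 2, 1 and 4 in the young and 0, 2, 4 and 4 in the aged mice, so cells of a mouse are not independent and the intervals cover counting error only. Atoh1 was read in 17 of 17 (exact 95% interval 80.5% to 100%) at 237 CPM, Spdef in 14 of 17 (56.6% to 96.2%) at 59.7 CPM, and Dll1 in 13 of 17 (50.1% to 93.2%) at 70.3 CPM. Gfi1 was read in 4 of 17 (6.81% to 49.9%). In the 6 tuft-led cells Atoh1 was read in 0 of 6 (0% to 45.9%). Most Atoh1 signal nevertheless lay outside these classes, because ISC-led cells are so many: they held 52.0% of the cells with an Atoh1 read and 63.6% of its summed per-cell CPM, against 34.6% and 21.5% in Paneth-led and 6.32% and 12.7% in goblet-led cells.

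The wider pathway lists gave, in Paneth-led cells, 16 genes called higher (22.2%, beside 7.64% of all genes) and 9 called lower (12.5%, beside 7.62%) of 72 tested. The genes called lower include Ascl2 and Olfm4, which are in the ISC list that assigned the cells, so their fall was fixed in advance. Among secretory fate factors, 9 of 18 tested rose and 2 fell, Neurog3 and Ascl2 (-1.04 ± 0.16), with a list median of 0.62 beside -0.13 over all genes. Bhlha15, a secretory cell maturation factor, rose by 5.31 ± 0.38 and Klf4, a factor of goblet cells, by 3.07 ± 0.24, and Neurog3, the endocrine factor, fell by 3.31 ± 0.79. Of 4 Notch receptors tested 2 fell and 1, Notch4, rose (1.81 ± 0.33). Of 4 genes tested in the list named Notch target genes 2 fell, Olfm4 (-0.93 ± 0.15, itself in the ISC list) and Hes6 (-0.61 ± 0.17). Whether Hes6 answers to Notch in these cells was not tested, and Hes1 was not called. Of 4 ligands 1 rose, Dll4. In trafficking 3 of 12 rose, among them Mib1 (1.48 ± 0.18), the ubiquitin ligase that activates ligands, and 1 fell. In the transcription complex 2 of 15 rose and 2 fell, and of 15 modifiers tested 0 passed with edgeR, with 2 below an unadjusted p of 0.05, both lower. These genes beyond the 10 were chosen by the call itself, after their values were seen, and Bhlha15 is given as the largest change.

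In enterocyte-led cells 4 list genes were called higher (5.48%, beside 10.1% of all genes) and 13 lower (17.8%, beside 10.3%) of 73 tested. The lower ones include Ascl2 and Olfm4 (-1.55 ± 0.29), both in the ISC list that assigned the cells. The secretory fate factors had 1 of 19 called higher, Klf4 (2.28 ± 0.46), and 4 lower, Sox4 (-1.80 ± 0.27), Sox9 (-1.58 ± 0.19), Foxa3 (-1.49 ± 0.31) and Ascl2 (-1.33 ± 0.26, itself an ISC marker), with a list median of -1.07 beside -0.25 over all genes. Rbpj, the DNA-binding partner of cleaved Notch, fell by 1.26 ± 0.36, and Lfng, another Fringe enzyme, fell by 1.60 ± 0.34.

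With age, 0 of the 10 genes were called, and 0 of 20957 genes tested were called in all (0%, edgeR quasi-likelihood test over 3 young and 4 aged mice, Benjamini-Hochberg adjusted p under 0.05). In simulated counts, with the same spread between mice set for every gene, this test called 2.5% of genes given a log2 change of 1. The lack of calls therefore does not show equal levels at both ages. At an unadjusted p under 0.05 edgeR had 1098 genes (5.24%), of which 565 were higher in aged mice (2.7% of genes tested), and DESeq2 called 177 genes (0.845%), among them 0 of the 10. Atoh1 and Spdef were the members under an unadjusted p of 0.05. Atoh1 had 8.88 ± 4.02 CPM (SD, n = 3) in young and 20.2 ± 8.71 CPM (SD, n = 4) in aged mice, a log2 fold change of 1.24 ± 0.44 (SE, 95% interval 0.25 to 2.23, edgeR unadjusted p = 0.0193, adjusted p = 0.817). Its adjusted p was between 0.209 and 1.00 over 17 other settings, and the log2 value between 0.94 and 1.64. Spdef had 3.23 ± 0.24 CPM in young (SD, n = 3) and 6.37 ± 2.81 CPM in aged mice (SD, n = 4), a log2 fold change of 1.05 ± 0.41 (95% interval 0.12 to 1.97, edgeR unadjusted p = 0.0309, adjusted p = 0.888), and 0.64 to 1.31 over the other settings.

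The other members had wider or smaller differences. Mfng had a log2 fold change of 1.73 ± 0.86 (95% interval -0.20 to 3.65), with only 2 reads in young mouse 1. The value was 0.67 ± 0.39 for Dll4, 0.41 ± 0.26 for Jag1, 0.36 ± 0.63 for Gfi1, 0.29 ± 0.23 for Dll1, -0.37 ± 0.37 for Hes1, -0.05 ± 0.19 for Notch1 and 0.01 ± 0.25 for Notch2. The interval of Notch1 ran from -0.48 to 0.39 and that of Notch2 from -0.56 to 0.57, and both took either sign when single mice were left out. Of the 10 genes, 0 had CPM values that did not overlap between ages, against 5.92% of all genes tested.

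**Figure D4:**
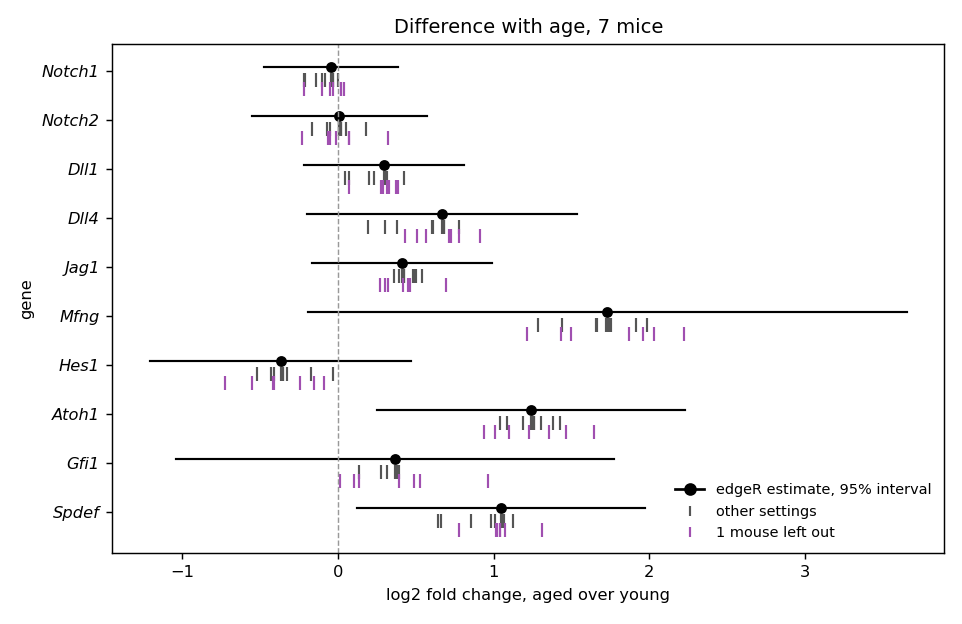
Log2 fold change of each gene, aged over young, from edgeR on counts summed per mouse (point, with its 95% interval), with ticks for the other settings in grey and for fits without 1 mouse in purple. The intervals of Atoh1 (0.25 to 2.23) and Spdef (0.12 to 1.97) lie above 0 before adjustment, and ticks of Notch1 and Notch2 fall on both sides of 0.

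The levels of markers of other cells are given beside those of Atoh1 and Spdef, and the ranges of young and aged mice overlapped for each of these lists in kept cells. The summed level of the 10 goblet markers was 381 to 1095 CPM in young and 556 to 2737 CPM in aged mice, with 10 of 10 genes higher in the mean of the aged mice. The 12 Paneth markers summed to 7501 to 26254 and 14144 to 29110 CPM, with 9 of 12 higher, and the 12 enteroendocrine markers to 8.80 to 157 and 94.9 to 596 CPM, with 8 of 12 higher. The enterocyte list summed to 1230 to 1469 and 1174 to 2860 CPM (11 of 12 higher), the tuft list to 6.17 to 109 and 56.0 to 199 CPM (8 of 10), the immune list to 1372 to 2734 and 957 to 4042 CPM (5 of 8) and the stromal list to 0.709 to 0.967 and 0.0345 to 7.17 CPM (5 of 8). None of these markers was at 0 in all mice, and their part in the age difference of Atoh1 and Spdef was not tested. In ISC-led cells alone Atoh1 lay between 3.76 and 7.69 CPM in the young and between 9.57 and 22.4 CPM in the aged mice without overlap, with a log2 fold change of 1.43 ± 0.43 (edgeR unadjusted p = 0.00773, adjusted p = 0.725). Among the members Atoh1 and Gfi1 were the 2 of 10 higher without overlap there, against 1.77% of genes. Gfi1 had only 93 reads in 19 of 1604 ISC-led cells, and the low-count filter left it out of that fit. Its level was 0, 0.132 and 0.127 CPM in the young and 0.216, 0.138, 0.147 and 0.282 CPM in the aged mice. In those cells the Paneth markers summed to 860 to 1022 CPM in young and 884 to 1084 CPM in aged mice (7 of 12 genes higher). The goblet markers summed to 184 to 243 and 254 to 472 CPM (9 of 10), without overlap. Overlapping sums were those of the enteroendocrine list, 1.42 to 151 and 3.38 to 545 CPM (10 of 12), and the tuft list, 6.25 to 55.5 and 44.3 to 155 CPM (9 of 10). The enterocyte list, 980 to 1032 and 931 to 1190 CPM (9 of 12), and the ISC list, 19751 to 24471 and 15897 to 25896 CPM (3 of 14), overlapped too.

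The cell names carry a code shared by groups of cells, and the labels do not say whether it marks a plate or a sequencing lane. In the 3 codes that held cells of both ages, Atoh1 was at 10.3, 15.6 and 26.3 CPM in aged mice 1, 2 and 3 and at 3.09, 6.59 and 13.0 CPM in the young mouse of the same code, so it was higher in the aged mouse of each code, by 1.73, 1.24 and 1.01 on the log2 scale. Young mouse 2 entered in 2 codes, and its Atoh1 level differed between them (3.09 and 6.59 CPM). Spdef differed by -0.19, 0.75 and 1.18, Dll4 by 1.05, -0.07 and -0.57, and Hes1 by -0.05, -0.14 and -0.09. Jag1 was higher in the aged mouse of each code, by 0.83, 0.25 and 0.20, and so was Mfng, by 1.11, 0.66 and 4.96, the last against the 2 reads of young mouse 1. Notch1, Notch2, Dll1 and Gfi1 took both signs. Young mouse 3 and aged mouse 4 each had a code of their own.

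The share of cells with a read was tested as a separate readout, in thinned cells and with an exact two-sided permutation test over the 35 divisions of the mice, whose smallest p is 0.0286. Jag1 was read in 24.0%, 31.2% and 28.0% of cells of the young and in 36.7%, 46.9%, 39.2% and 36.1% of cells of the aged mice, so that every aged mouse was above every young mouse (12.0 percentage points, exact permutation p = 0.0286, adjusted p = 0.143). Gfi1 was read in 0%, 0.852% and 1.08% of cells of the young mice and in 1.81%, 1.68%, 1.70% and 1.76% of cells of the aged mice (1.09 points, exact permutation p = 0.0286, adjusted p = 0.143). The value of 0 in young mouse 1 is of 146 cells, which allows a share of up to 2.05%. Dll1 and Mfng were also higher in each aged mouse (exact permutation p = 0.114 and 0.0571, adjusted p = 0.190 for both), which makes 4 of 10 genes without overlap, against 3.78% of all genes tested, and 0 of 10 were lower without overlap, against 2.58%. For Dll1 the gap was narrow, with young mouse 1 at 43.2% and aged mouse 1 at 43.4%. Gfi1 rests on few cells, 1.27% of the thinned cells of all mice. Atoh1 was read in 9.59%, 6.25% and 7.80% of cells of the young and in 9.04%, 23.5%, 16.5% and 20.5% of cells of the aged mice, with aged mouse 1 below young mouse 1 (9.50 points, exact permutation p = 0.0857, adjusted p = 0.190). After adjustment over the 10 genes 0 passed. With at least 5 reads asked for, the differences shrank to 1.68 points for Jag1 and 0.07 for Gfi1, and that of Hes1 went from -2.82 to -14.1 points (exact permutation p = 0.286). Without thinning Dll1 overlapped between ages, and Notch2 was read in 93.8%, 95.7% and 96.5% of cells of the young and in 87.8%, 90.9%, 91.5% and 90.2% of cells of the aged mice, lower without overlap (-5.23 points, exact permutation p = 0.0286, adjusted p = 0.143), beside -0.48 points when thinned.

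**Figure D5:**
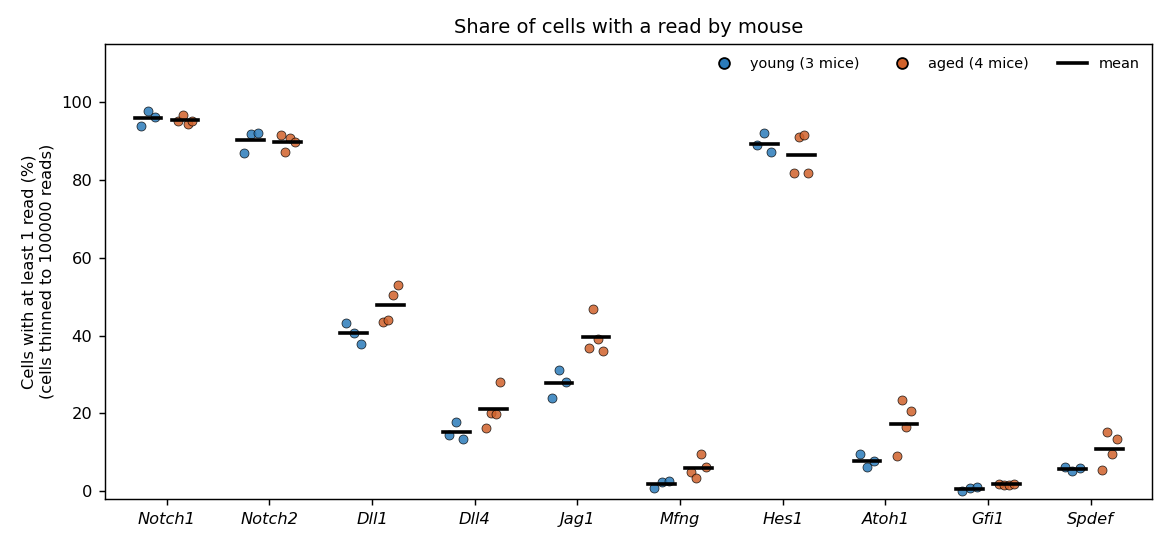
Percent of cells with at least 1 read of each gene after thinning to 100000 reads, with 1 point per mouse for 3 young and 4 aged mice and a bar at each mean. Jag1 is at 24.0% to 31.2% in the young and 36.1% to 46.9% in the aged mice, and Atoh1 in aged mouse 1 (9.04%) lies among the young.

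Over the pathway lists, 0 of the 82 genes tested of 87 were called with age by edgeR. Under an unadjusted p of 0.05 there were 4, all of them secretory fate factors and all higher in aged mice: Atoh1, Spdef, Creb3l1 and Insm1. This is 4 of 82 list genes, beside 5.24% of all genes in either direction and 2.7% higher in aged mice with edgeR. Creb3l1, a transcription factor of secretory cells, was at 6.61, 5.01 and 6.59 CPM in the young and at 10.6, 7.51, 8.82 and 14.6 CPM in the aged mice (log2 0.83 ± 0.30, edgeR adjusted p = 0.818), without overlap. Insm1, an endocrine factor, was at 0.607, 0.208 and 0.520 CPM in the young and at 0.432, 1.39, 1.58 and 1.15 CPM in the aged mice, and the groups overlapped. The secretory list had a median log2 of 0.28 beside 0.01 over all genes, with 13 of 21 genes above 0. The medians of the other lists lay between -0.14 for the target genes and 0.13 for the ligands. The lowest values among list genes of at least 5 CPM were those of Pou2f3, the tuft cell factor (-1.54 ± 0.95), Neurog3 (-0.43 ± 1.48) and Mib2, a ligand-activating ubiquitin ligase (-0.42 ± 0.25). Pou2f3 was at 27.9 CPM in young mouse 1 and between 1.32 and 8.58 CPM in the other mice, so that mouse stands apart from the others.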

How the data were processed

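Single Lgr5 high cells of 3 young and 4 aged mice were measured by Smart-seq2. Per the labels the authors used HISAT2 on the GRCm38 build and HTSeq, and per the methods reads were single-end with Picard for quality. The deposited values are whole read counts, not normalized. For versions, annotation and strand setting, the sources used here give nothing. Of 55471 identifiers, 55230 were matched to GENCODE M21 symbols. Mice were taken from the labels, and no doublet caller was run.

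The 1836 cells that reached 1000 detected genes were summed per mouse (49447464 to 134408884 reads). For age, the sums were fitted in edgeR 4.0.16 (TMM, quasi-likelihood test, its low-count filter, Benjamini-Hochberg adjustment over all genes, threshold 0.05) in R 4.3.3, and for marker-led classes with the mouse as a block, in mice with at least 5 cells of both classes. Goblet-, tuft- and enteroendocrine-led cells were too few. DESeq2 1.42.0 and limma 3.58.1, with log2 of mean CPM + 0.5, were alternatives. Shares were computed after thinning to 100000 reads, and exact permutation tests were run in Python 3.11.15. Steps were tested on simulated data. There the age test called 2.5% of genes given a log2 change of 1 and 96.5% of those given 2. Every simulated gene had the same dispersion, the spread between mice beyond counting error. The 96.5% therefore need not hold for members with a wide spread, such as Mfng (SE 0.86) and Gfi1 (SE 0.63). Named were the 10 members, list genes under an unadjusted p of 0.05 or among the 3 highest or lowest of at least 5 CPM, and the 3 most alike genes (10 for Atoh1 and Hes1). The members and lists were chosen with earlier results of these data known.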

Additional observations from a re-analysis of the deposited data

How the results depend on the processing

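Of the 10 genes, 0 were called with age under every one of the 17 other settings run, and the same held for the pathway lists. Over all genes, calls with age were 0 with edgeR, 177 with DESeq2, 22 without the low-count filter, 18 with cells weighted equally, 6 with cells thinned, 1 with the code in the cell names as a block (a fit in which young mouse 2 counts as 2 samples), and 0 to 8 with 1 mouse left out. Signs turned for Notch2 with age (-0.073 thinned, -0.17 with equal weights, -0.050 with library totals, -0.23 to 0.32 with 1 mouse left out) and for Notch1 with 1 mouse left out (-0.22 to 0.039). Shares turned for Notch1 unthinned (0.23 points) and with 1 mouse left out (-1.62 to 0.33), and for Notch2 in ISC-led cells (0.43) and with 1 mouse left out (-2.14 to 0.47). In Paneth-led cells 5 members were called, 4 to 5 with 1 mouse left out and 8 with library totals (as were 73.1% of all genes), where Dll1 turned to -0.89, and Jag1 turned to 0.12 when thinned. In enterocyte-led cells 3 were called, 2 to 3 with 1 mouse left out, and Jag1 turned to 0.17 with a margin of 1 between lists, to 0.033 with DESeq2 size factors and lay between -0.29 and 0.10 with 1 mouse left out. The cause was not tested. Library totals, and DESeq2 size factors for the classes, were added after the data were seen. With cells weighted equally 3 neighboring pairs in the order of levels differed, with Dll1 and Spdef in place of Dll1 and Dll4. Gfi1 had no age value in thinned or ISC-led cells, being filtered out.

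The mouse numbers were not taken to pair young and aged mice. Deviations of same-numbered mice correlated at -0.0159, 0.107 and -0.11, and so few values cannot settle whether the numbers pair mice. With the replicate number as a block 0 genes were called, and Atoh1 had a log2 fold change of 1.04 and Spdef of 0.66 (edgeR adjusted p = 1.00 for both). Depth limits Gfi1 (158 reads) and Mfng (863 reads) most.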
